A study of Mus musculus with 23 samples.

Results

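Of the 1174 microRNA genes listed for the sciatic nerve (SN) crush libraries, 3 carried enough reads to be described, and these 3 are the subject here: Mir6236, Mir6240 and Mir1983. A gene was taken as a microRNA gene when its GENCODE type was miRNA and its symbol was Mir or Mirlet followed by a number, and the 3 were chosen by their summed counts, at least 10 in 3 or more of the 11 libraries, whatever the group. All 3 genes had at least 10 counts in all 11 libraries, so none entered through the group in which it was high. The files of the Dgcr8 and Dicer mutant nerves list 0 genes of this kind, and the description is therefore of the crush experiment alone. The crushed group held 4 nerves of wild-type C57BL/6J male mice, 2 months old, taken 3 days after the nerve had been crushed at the sciatic notch, and the piece harvested reached from 1 mm to 8 mm distal to the injury. The contralateral group held 4 uninjured nerves from the other side of operated animals, and the uncrushed group held 3 nerves serving as the surgery control; no transgene separated the groups.

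MicroRNAs are made from long primary transcripts. The Microprocessor, formed by Drosha and Dgcr8, cuts out a short hairpin precursor, Exportin-5 and Ran carry it to the cytoplasm, and Dicer trims it to the mature strand that guides Argonaute proteins to target messages. In Schwann cells this pathway is needed for myelination, and the study concludes that it keeps injury-response genes from being active when they should not be. The libraries described here were made from long RNA, and the mature strands themselves were not measured.

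The sequences of Mir6240 and Mir1983 are given first, because they bear on what the reads at these loci can be. The mature strands listed by RefSeq (GRCm38.p6) are shown 5′ to 3′ with the seed, bases 2 to 8, in capitals.
mmu-miR-6240: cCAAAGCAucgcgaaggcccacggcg
mmu-miR-1983: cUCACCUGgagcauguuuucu
The 2 seeds differ from each other. In the RefSeq table the seed of miR-6240 was shared with miR-330-3p and that of miR-1983 with miR-412-3p. Neither belongs to the let-7, miR-10 or miR-21 seed families, whose members are abundant in nerve and are shown for comparison.
mmu-let-7f-5p: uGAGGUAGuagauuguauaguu
mmu-miR-10b-5p: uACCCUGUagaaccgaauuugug
mmu-miR-21a-5p: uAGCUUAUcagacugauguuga
The genes for let-7f (Mirlet7f-1), miR-10b (Mir10b) and miR-21a (Mir21a) each had 0 counts in all 11 libraries.

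The annotated precursors follow, from the GENCODE M21 transcript sequences (GRCm38) in DNA letters, with the mature part in capitals.
Mir6240: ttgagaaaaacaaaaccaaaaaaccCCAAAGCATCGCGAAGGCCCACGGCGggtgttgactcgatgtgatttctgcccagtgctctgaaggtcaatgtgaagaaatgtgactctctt
Mir1983: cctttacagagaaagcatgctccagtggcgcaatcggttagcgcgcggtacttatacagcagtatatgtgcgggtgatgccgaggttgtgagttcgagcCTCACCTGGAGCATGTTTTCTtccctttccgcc
Mir6236 (ENSMUSG00000098973) is 123 bases long and lies on chromosome 9. Mir6240 (ENSMUSG00000098343) is 117 bases long and lies at chr5:114851948-114852064 on the plus strand. Mir1983 (ENSMUSG00000088148) is 132 bases long and lies at chr13:21896918-21897049 on the minus strand. In GENCODE, none of the 3 overlaps another gene on either strand. RefSeq places Mir6236 within the lncRNA Gm39429, which the deposited files do not list, and reads from that transcript cannot be told apart from those of Mir6236.

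The name microRNA precursor was checked against these sequences, and the reads cannot be assigned to such precursors with certainty. RefSeq annotates the isoleucine tRNA gene n-TItat14 inside Mir1983, at chr13:21896938-21897031. The tRNA occupies bases 19 to 112 of the 132-base precursor, counted from its 5′ end, and is shown here in capitals.
Mir1983: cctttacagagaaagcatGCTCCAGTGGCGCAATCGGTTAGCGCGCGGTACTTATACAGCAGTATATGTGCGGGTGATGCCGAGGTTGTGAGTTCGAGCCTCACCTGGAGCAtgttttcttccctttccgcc
The mature miR-1983 begins inside the tRNA and runs past its 3′ end, from base 100 to base 120, so reads of the tRNA and of the precursor cannot be told apart. The precursors of Mir6236 and Mir6240 are known for stretches resembling the large-subunit ribosomal RNA. No ribosomal repeat sequence was compared here. Against all GENCODE M21 transcripts, Mir6240 matched no other transcript on its own strand, and 29 of its bases aligned to the opposite strand of Gm40932 at 93.1% identity. In Mir1983, 38 bases inside the tRNA matched the opposite strand of the lincRNA Gm30122 at 100% identity. The 3 genes are therefore called by their symbols below.

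**Figure D1:**
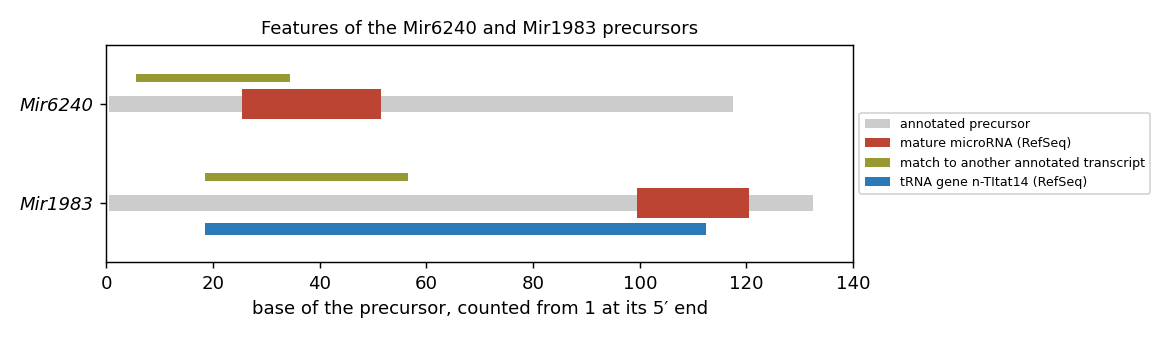
Map of the annotated precursors of Mir6240 and Mir1983, with the base counted from 1 at the 5′ end on the x axis. Red boxes mark the mature strand, olive bars the matches to any other GENCODE transcript on either strand, and the blue bar the tRNA gene n-TItat14, which covers bases 19 to 112 of Mir1983.

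The 11 libraries held 6617716 to 12806066 counts each. Levels are given as CPM (counts per 1000000 counts of the library), scaled by TMM over the 11 libraries, and a gene was called changed at an adjusted p of at most 0.05 and at least a 2-fold change in edgeR's quasi-likelihood test over all genes. By this rule 36.4% of the 17477 genes tested were called between crushed and uncrushed nerves, 28.3% of 16667 between crushed and contralateral nerves, and 0% of 17722 between contralateral and uncrushed nerves. Uncrushed replicate 3 stood apart for short RNAs: genes of at most 150 bases took 4.14% of its counts, against 1.47% to 3.23% in the other libraries. It is therefore left out in turn beside each result for the 3 genes that it decides. Its labels disagree on its number, the title giving 3 and the description 4, and it is called replicate 3 here after the title. Nothing says that the nerves of a group came from separate cages or days, and the p-values measure the spread between these nerves only. Crushed and contralateral nerves can come from the same mice, and the tests took them as unpaired.

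Mir6236 was the most abundant of the 3 and was higher in crushed than in contralateral nerves. Its level was 278, 285, 285 and 271 CPM in the 4 crushed nerves. It was 92.1, 86.0, 88.9 and 117 CPM in the 4 contralateral nerves and 73.3, 178 and 233 CPM in the 3 uncrushed nerves. Every crushed nerve lay above every control nerve, and the crushed nerves lay close together while the uncrushed nerves were widely spread. The means were 280 ± 6.66 CPM (SD, n = 4) in crushed, 95.9 ± 14.1 CPM (SD, n = 4) in contralateral and 161 ± 81.2 CPM (SD, n = 3) in uncrushed nerves. Mir6236 rose 2.95-fold over contralateral nerves, a log2 fold change of 1.56 ± 0.09 (SE) with an adjusted p of 1.46e-09 in edgeR's quasi-likelihood test. Against uncrushed nerves the log2 fold change was 0.92 ± 0.27 (SE) with an adjusted p of 0.00941, which passed the p limit but not the 2-fold limit. Without uncrushed replicate 3 this value became 1.27 with an adjusted p of 0.00171, and without uncrushed replicate 2 it became 1.04 with an adjusted p of 0.0156, both past the limits. Without uncrushed replicate 1 it dropped to 0.60, with an adjusted p of 0.000802.

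Mir6240 was also higher in crushed than in contralateral nerves, by slightly less than 2-fold. The crushed nerves held 137, 216, 149 and 166 CPM, with a mean of 167 ± 34.6 (SD, n = 4). The contralateral nerves held 88.8, 71.8, 89.5 and 105 CPM, with a mean of 88.8 ± 13.7 (SD, n = 4), and the uncrushed nerves held 53.2, 104 and 199 CPM, with a mean of 119 ± 74.2 (SD, n = 3). Crushed and contralateral nerves did not overlap, whereas uncrushed replicate 3 lay above 3 of the 4 crushed nerves. The log2 fold change over contralateral nerves was 0.93 ± 0.13 (SE), with an adjusted p of 1.64e-05 (edgeR's quasi-likelihood test) and a 95% interval from 0.65 to 1.21. Without contralateral replicate 4 it was 1.01 with an adjusted p of 2.38e-05, past both limits, and without crushed replicate 2 it was 0.82. Over uncrushed nerves the log2 fold change was 0.62 ± 0.31 (SE), with an adjusted p of 0.0985. Without uncrushed replicate 3 that second value was 1.199 with an adjusted p of 0.00164, past both limits. Without uncrushed replicate 1 it was 0.31 with an adjusted p of 0.254, and without crushed replicate 2 it was 0.46 with an adjusted p of 0.253.

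Mir1983, the tRNA-containing gene, was the least abundant and went the other way. Its level was 2.57, 3.91, 2.29 and 3.205 CPM in the crushed nerves, from 24.6 to 47.8 counts a library. It was 8.02, 4.32, 5.92 and 6.97 CPM in the contralateral nerves and 7.64, 4.50 and 20.96 CPM in the uncrushed nerves. All crushed nerves lay below all control nerves, though the highest crushed nerve and the lowest contralateral nerve were close. The means were 2.99 ± 0.722 CPM (SD, n = 4) in crushed, 6.31 ± 1.58 CPM (SD, n = 4) in contralateral and 11.03 ± 8.74 CPM (SD, n = 3) in uncrushed nerves. Mir1983 was 2.06-fold lower than in contralateral nerves, a log2 fold change of -1.04 ± 0.22 (SE) with an adjusted p of 0.00071 by edgeR. It was 3.26-fold lower than in uncrushed nerves, a log2 fold change of -1.70 ± 0.41 (SE) with an adjusted p of 0.0031. The second value rested in part on uncrushed replicate 3, without which it was -0.94 with an adjusted p of 0.0141 and missed the 2-fold limit. The first lay at the limit and missed it without contralateral replicate 1 (-0.90), contralateral replicate 4 (-0.999) or crushed replicate 3 (-0.97), with adjusted p-values of at most 0.00325.

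**Figure D2:**
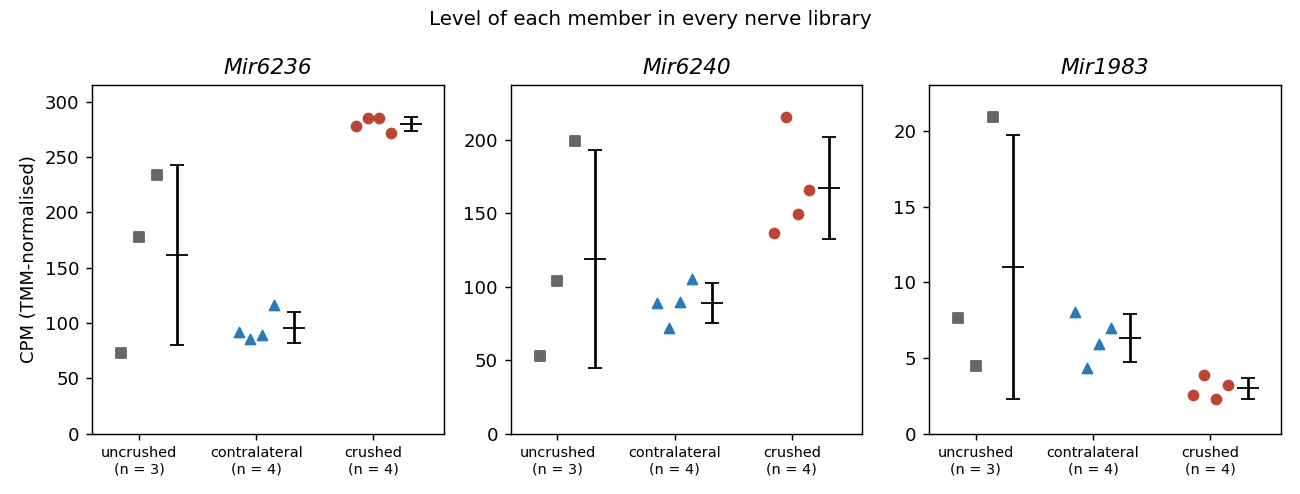
Level of Mir6236, Mir6240 and Mir1983 in CPM (y axis, from 0, on its own scale for each gene) in every nerve library, by group; bars to the right of the points are the mean and SD. The crushed nerves lie above all control nerves for Mir6236 and below them all for Mir1983, and uncrushed replicate 3 is the highest uncrushed nerve for each gene.

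Counted by the call rule, 1 of the 3 genes was called between crushed and uncrushed nerves (Mir1983, lower) and 2 of 3 between crushed and contralateral nerves (Mir6236 higher, Mir1983 lower). Mir1983 was the 1 gene called in the same direction against both controls, where 24.6% of the 16556 genes tested in both were called. By direction, 15.3% of all genes were called higher and 21.1% lower against uncrushed nerves, 14.6% higher and 13.6% lower against contralateral nerves, and 13.3% higher and 11.3% lower against both. Beside these backgrounds, 1 or 2 calls among 3 genes are not a result about the 3 genes as a set. The 2 comparisons share the crushed nerves and are not independent.

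Between contralateral and uncrushed nerves 0 of the 3 genes was called by edgeR's quasi-likelihood test, and 1 of 3, Mir6236, had an unadjusted p under 0.05. The log2 difference was -0.74 ± 0.27 (SE) for Mir6236 with an adjusted p of 0.209. For Mir6240 it was -0.40 ± 0.31 (SE) with an adjusted p of 0.504, and for Mir1983 it was -0.75 ± 0.40 (SE) with an adjusted p of 0.35. All 3 intervals were wide, and the 95% interval for Mir1983 reached from -1.63 to 0.13. Without uncrushed replicate 1, Mir6236 was lower in contralateral nerves by a log2 difference of -1.07 with an adjusted p of 0.0422, past both limits. Without uncrushed replicate 3 the difference turned to 0.0156 for Mir1983 and to 0.19 for Mir6240, with adjusted p-values of 0.988 and 0.744. In mean TPM, too, contralateral nerves were not below uncrushed nerves for Mir6240, at 2533 and 2160 TPM, or for Mir1983, at 44.4 and 44.1 TPM. For Mir6236 the contralateral mean was lower, at 1242 ± 137 beside 1394 ± 845 TPM (SD). DESeq2 and edgeR's exact test each also called 0 of the 3.

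**Figure D3:**
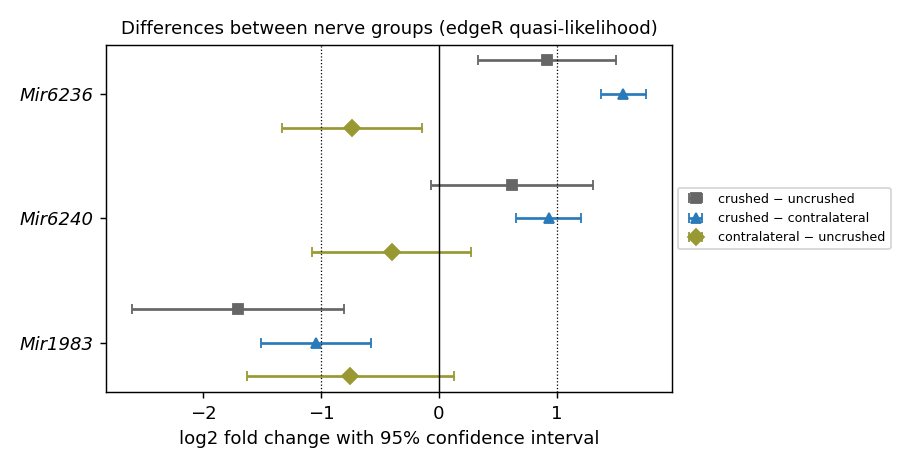
Log2 fold change (x axis) of each gene between nerve groups from edgeR's quasi-likelihood fit, with 95% confidence intervals; dotted lines mark a 2-fold change. The intervals for both comparisons with crushed nerves exclude 0 for Mir6236 and Mir1983, and the interval of Mir6240 over uncrushed nerves reaches from -0.06 to 1.30.

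The order of the levels per length differed by scale, and the distance between the first 2 genes differed by group. As CPM per kilobase of annotated length, crushed nerves held 2274 ± 54.1 (SD, n = 4) of Mir6236, 1428 ± 296 of Mir6240 and 22.7 ± 5.47 of Mir1983. Contralateral nerves held 780 ± 114 of Mir6236 and 759 ± 117 of Mir6240 on the same scale, which do not differ beyond their spread, and 47.8 ± 11.9 of Mir1983. Uncrushed nerves held 1312 ± 660, 1016 ± 634 and 83.6 ± 66.2 in the same order, and the first 2 again overlapped. On the deposited TPM scale, for which RSEM corrects length by the fragment sizes of each library, Mir6240 came first. Its mean was 4738 TPM in crushed, 2533 TPM in contralateral and 2160 TPM in uncrushed nerves, beside 4034, 1242 and 1394 TPM for Mir6236 and 24.0, 44.4 and 44.1 TPM for Mir1983.

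The choice of scale also moved the distance from uncrushed nerves. In mean TPM, Mir6236 was 2.89 times as high in crushed as in uncrushed nerves, against a 1.89-fold difference fitted to the counts. The lowest crushed nerve had 3325 TPM of Mir6236 and the highest uncrushed nerve 2216 TPM. For Mir6240 the groups no longer overlapped on this scale, with at least 3186 TPM in every crushed and at most 3044 TPM in every uncrushed nerve. Mir1983 was 1.84 times as high in uncrushed as in crushed nerves in mean TPM, against 3.26-fold in the counts.

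Mir6236 and Mir6240 were next set beside Gm42418, a lincRNA gene at chr17:39846958-39848788 in a stretch known to hold ribosomal RNA repeat sequence. This gene and the other RNA genes named in this and the next paragraph were chosen after their values were seen. Gm42418 rose with the crush, from 13353 ± 988 CPM (SD, n = 4) in contralateral to 39714 ± 4057 CPM (SD, n = 4) in crushed nerves, a log2 fold change of 1.59 ± 0.12 (SE) with an adjusted p of 3.8e-08 by edgeR. Over uncrushed nerves its log2 fold change was 1.19 ± 0.25 (SE) with an adjusted p of 0.00108. Its neighbour Gm26917 (chr17:39843013-39846341) rose by 1.46 ± 0.23 (SE) over contralateral and by 1.53 ± 0.30 (SE) over uncrushed nerves on the log2 scale, with adjusted p-values of 5.12e-05 and 0.000697. Of 5 ribosomal or ribosomal-like RNA genes tested, only these 2 were called against either control. The 5S gene n-R5s193 stood at 0.395 over contralateral and -0.30 over uncrushed nerves (adjusted p 0.0707 and 0.399 by edgeR). The mitochondrial genes mt-Rnr1 and mt-Rnr2 stood at 0.16 and 0.12 over contralateral nerves. Over uncrushed nerves they stood at 0.05 and -0.04.

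Taken as a ratio within each library, which needs no normalisation, Mir6236 kept pace with Gm42418. There were 7.10 ± 0.744 counts of Mir6236 per 1000 counts of Gm42418 in crushed (SD, n = 4), 7.16 ± 0.605 in contralateral (SD, n = 4) and 8.25 ± 1.76 in uncrushed nerves (SD, n = 3). The log2 difference between crushed and contralateral nerves was -0.02 ± 0.09 (SE), with an exact permutation p of 0.8, two-sided. Mir6240 gave 4.21 ± 0.745 counts per 1000 in crushed, 6.63 ± 0.662 in contralateral and 5.91 ± 1.52 in uncrushed nerves. The crushed and contralateral ranges, 3.46 to 5.24 and 5.79 to 7.25, did not overlap. Their exact permutation p was 0.0286, the smallest that 4 against 4 nerves allow when taken as unpaired. It was 0.0857 after Benjamini-Hochberg adjustment over the 6 ratio tests made.

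The ratio of Mir6236 to Mir6240 was 1.72 ± 0.314 in crushed (SD, n = 4) and 1.08 ± 0.0895 in contralateral nerves (SD, n = 4), again without overlap and with the same exact permutation p of 0.0286, adjusted 0.0857. In uncrushed nerves it was 1.42 ± 0.272 (SD, n = 3), within the crushed range of 1.32 to 2.03 for 2 of the 3 nerves. None of the 3 ratios could reach an exact p under 0.0571 against the 3 uncrushed nerves, and their p-values there were 0.114 to 0.343. The part of ribosomal RNA in the reads of Mir6236 and Mir6240 was not tested.

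Mir1983 was set beside short RNAs which, like tRNA, are made by RNA polymerase III. Of 7 such genes tested, 3 fell against both controls: Rny1 and Rny3, which encode Y RNAs that bind the Ro60 protein, and Rn7sk, whose RNA restrains the elongation factor P-TEFb. Rny1 had 112 ± 25.8 CPM (SD, n = 4) in crushed, 419 ± 91.8 CPM in contralateral (SD, n = 4) and 718 ± 392 CPM in uncrushed nerves (SD, n = 3). Its log2 fold changes were -1.88 ± 0.18 (SE) and -2.57 ± 0.30 (SE), with adjusted p-values of 2.84e-07 and 1.24e-05 by edgeR. Those of Rn7sk were -1.28 ± 0.11 (SE) and -1.57 ± 0.21 (SE).

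Other genes of the same polymerase were not called against both controls. Rn7s1, the RNA of the signal recognition particle, fell by 1.01 on the log2 scale against uncrushed nerves and stood at -0.55 against contralateral nerves, under the 2-fold limit. Rmrp, the RNA of a mitochondrial and nucleolar RNase, had log2 fold changes of 0.29 against contralateral and -0.28 against uncrushed nerves, with adjusted p-values of 0.127 and 0.35. Rpph1, the RNA of RNase P that trims tRNA precursors, gave -0.02 and -0.50, with adjusted p-values of 0.853 and 0.108. Vaultrc5, the last of the 7, stood at 0.21 against contralateral and -0.43 against uncrushed nerves, with adjusted p-values of 0.154 and 0.145 by edgeR. The median log2 fold change of the 7 genes was -0.55 against contralateral and -1.01 against uncrushed nerves, beside -0.06 and -0.03 over all genes tested. Uncrushed replicate 3 was the highest library for both Mir1983 and Rny1, at 20.96 and 1139 CPM.

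**Figure D4:**
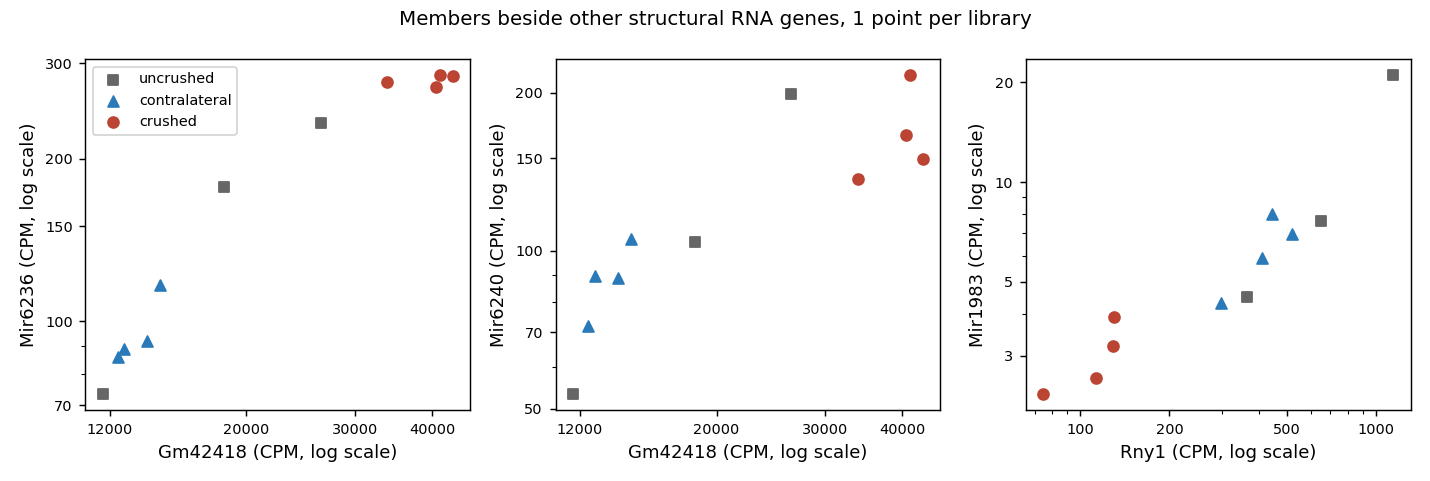
CPM of Mir6236 and Mir6240 against Gm42418, and of Mir1983 against Rny1, on log axes with 1 point per library and the group by colour and shape. Libraries high for Gm42418 are high for Mir6236, crushed or not, and crushed nerves form the low end for Mir1983 and Rny1.

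The remaining 1171 microRNA genes were at or near 0. Of them 1071 had 0 counts in all 11 libraries, 95 had fewer than 3 counts in every library, and 5 reached 3 counts somewhere. The 3 described genes held 35411 of the counts on microRNA genes and all others together 306, so that they took 99.1% of these counts. Just outside the rule stood Mir690, with 10.6 counts in crushed replicate 2 and 1.9 to 7.1 counts elsewhere. Next came Mir664 and Mir1839, with at most 4.0 and 4.1 counts in a library. Mir1983, just inside, had 24.6 to 123 counts.

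Hairpins known from nerve were among those not detected. Of 64 names on lists of microRNAs abundant in nerve, moved by injury or known from Schwann cells, immune cells, muscle and blood, mesenchyme or the miR-17-92 cluster, 63 were listed. Of these, 6 had any count, 10.8 counts in all, and none had more than 1 count in a library. They were Mir138-1, Mir199b, Mir29a, Mir16-1, Mir29c and Mir223. With 0 counts a library still allows up to 3 counts, which was 0.234 to 0.453 CPM at these depths, for counting error only. A difference in these precursors between nerve groups was therefore not detectable in these libraries, and whether greater depth would show one was not tested.

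Detection rose with the length of the annotated precursor. The 1174 genes spanned 39 to 139 bases with a median of 81, and the 3 described genes were among the 86 of at least 117 bases. Any count was seen for 4.67% of the genes of 39 to 80 bases, 7.75% of those of 81 to 100, 12.3% of those of 101 to 110, 25.5% of those of 111 to 120 and 34.4% of those of 121 to 139 bases. By place in the annotation, of 269 genes overlapping an exon of another gene on their strand, 15.2% had any count, against 7.37% of 556 genes lying in introns and 6.02% of 349 with no gene on the same strand. The part of library construction in this length trend was not tested.

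**Figure D5:**
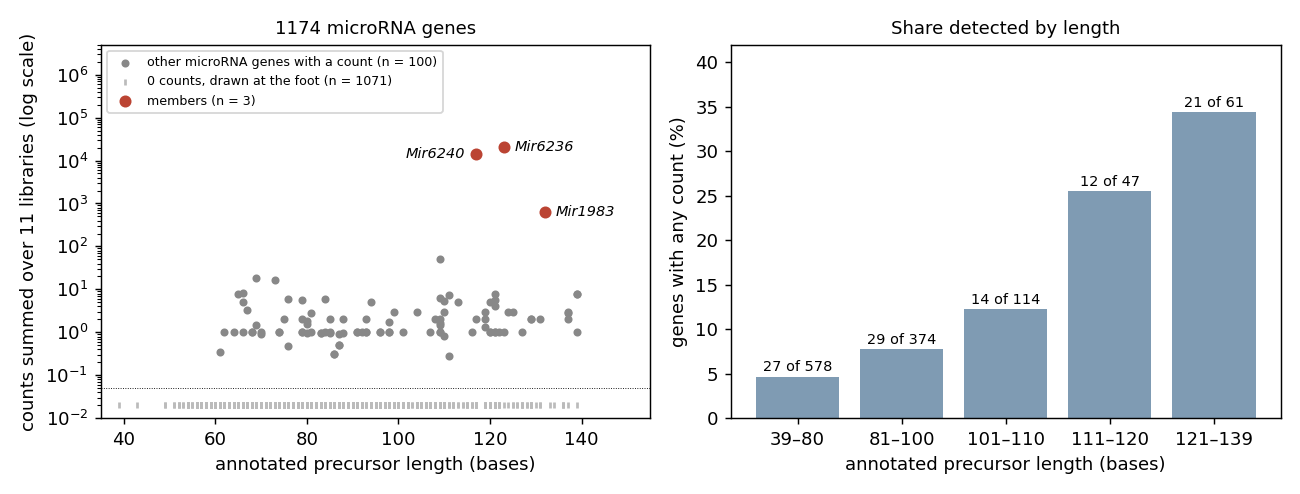
Left, counts summed over 11 libraries (log axis, with genes at 0 drawn at the foot) against annotated precursor length for 1174 microRNA genes; right, percent of genes with any count in each length class. The 3 described genes lie 1 or more log10 steps above all others, and the detected share climbs from 4.67% to 34.4%.

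Host transcripts were measured where their hairpins were not, and some of them changed with the crush. These hosts, too, were chosen after values were seen. Vmp1, a gene of autophagosome formation that holds Mir21a in an exon, rose from 28.7 ± 1.65 CPM (SD, n = 4) in contralateral to 79.6 ± 8.58 CPM (SD, n = 4) in crushed nerves, a log2 fold change of 1.49 ± 0.09 (SE) with an adjusted p of 2.31e-09 by edgeR, while Mir21a had 0 counts. Mcm7, a subunit of the replicative helicase that holds Mir25, Mir93 and Mir106b, rose by 2.04 ± 0.12 (SE) on the log2 scale. Mir22hg, the primary transcript of Mir22, rose by 1.38 ± 0.18 (SE) over contralateral and by 1.24 ± 0.22 (SE) over uncrushed nerves. Mir17hg, the primary transcript of the miR-17-92 cluster, rose by 1.47 ± 0.27 (SE) over uncrushed nerves and stood at 0.62 ± 0.20 (SE) over contralateral nerves, under the 2-fold limit. All 4 hairpin sets had 0 counts in every library.

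Other hosts fell. Trpm3, an ion channel gene with Mir204 in an intron, fell by 2.17 on the log2 scale against contralateral nerves (SE 0.15, adjusted p 1.5e-08), and Aatk, a kinase gene with Mir338 in an intron, fell by 2.84 (SE 0.14, adjusted p 3.84e-10). Of the 23 hosts tested among those of the listed microRNAs, 6 were called higher and 4 lower than in contralateral nerves, and 7 higher and 6 lower than in uncrushed nerves. That is 43.5% and 56.5% of the hosts, beside 28.3% and 36.4% of all genes.

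Few genes of the microRNA pathway were called in either comparison. Of 25 genes on the list 22 were tested, and 2 rose and 0 fell against contralateral nerves, 9.09% beside 28.3% of all genes. Against uncrushed nerves 3 rose and 1 fell, 18.2% beside 36.4%. Ran, the GTPase that drives nuclear export of precursors, rose by 1.88 ± 0.08 (SE) over contralateral nerves on the log2 scale with an adjusted p of 5.42e-11 by edgeR. Hnrnpa1, an RNA-binding protein that assists the processing of some primary transcripts, rose by 1.66 ± 0.09 (SE). Dgcr8, the RNA-binding partner of Drosha in the Microprocessor, had 39.1 ± 3.61 CPM (SD, n = 4) in crushed and 26.7 ± 2.88 CPM (SD, n = 4) in contralateral nerves. Its log2 difference was 0.57 ± 0.09 (SE) with an adjusted p of 5.6e-05 by edgeR, past the p limit but under the 2-fold limit. Over uncrushed nerves it was 0.68 ± 0.10 (SE) with an adjusted p of 7.07e-05, again under the 2-fold limit. Dicer1 stood at 59.1 ± 6.04 CPM in crushed and 57.6 ± 2.26 CPM in contralateral nerves, a log2 difference of 0.05 ± 0.08 (SE) with an adjusted p of 0.569.

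The annotation also holds genes of type miRNA without a Mir symbol, and 24 of these passed the same count rule. Of them 10 shared all 11 counts with another such gene, and their copies cannot be separated. Against uncrushed nerves 16 of the 24 were called lower and 0 higher. That is 66.7%, beside 36.4% of all genes called and 21.1% called lower, and genes with shared counts are among the 16. The median log2 fold change was -1.14 beside -0.03. Against contralateral nerves 3 of 22 were called lower and 0 higher, 13.6% beside 28.3% of all genes called and 13.6% called lower. No fit of these genes without uncrushed replicate 3 is given, and its part in the calls against uncrushed nerves was not tested. A gene of this group can have passed the count rule through the libraries in which it was high, so these counts are a description. The most abundant, Gm27509, is 79 bases long and had 309 ± 86.7 CPM in crushed (SD, n = 4), 313 ± 91.6 CPM in contralateral (SD, n = 4) and 535 ± 290 CPM in uncrushed nerves (SD, n = 3), with a log2 difference from contralateral nerves of 0.01 ± 0.21 (SE). Its spread among the uncrushed nerves was again wide, and its crushed and contralateral nerves overlapped.

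Marker RNAs of several cell types differed between the groups. All 5 macrophage markers were called higher in crushed nerves against both controls, and their summed level was 222 to 447 CPM in crushed, 33.1 to 63.2 CPM in contralateral and 49.4 to 52.8 CPM in uncrushed nerves. The 6 Schwann cell markers summed to 1827 to 2716 CPM in crushed nerves and to 30879 to 42565 CPM in the controls. In whole nerve, a change in the number of cells of a type and a change in RNA per cell cannot be told apart, and the part of these shifts in the levels of Mir6236, Mir6240 and Mir1983 was not tested.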

How the data were processed

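Long RNA of 4 crushed, 4 contralateral and 3 uncrushed mouse sciatic nerves was analysed here. According to the labels and the study's methods, the authors used Trimmomatic for trimming, STAR for alignment and RSEM for expression estimates, on Ensembl GRCm38. The labels name a stranded low-input total RNA kit with ribosomal RNA removal for these libraries, whereas the methods describe another kit. The deposited files hold RSEM expected counts and TPM for 105375 transcripts. The TPM values deposited by the authors were used for levels only. Transcript counts were summed per gene (43068 genes, 42451 of them in GENCODE M21) and rounded, and each pair of groups was fitted on its own with edgeR 4.0.16 (R 4.3.3): filterByExpr with a count minimum of 10, TMM, the quasi-likelihood test and Benjamini-Hochberg adjustment. A call required an adjusted p of at most 0.05 and at least a 2-fold change. SE was obtained from the log2 fold change and the F statistic (their quotient after taking the root of F).

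Tested on simulated data with 200 genes changed by 1.5 on the log2 scale, the fit recovered 93.5% of them for crushed against contralateral nerves (16667 genes) and 87.5% for crushed against uncrushed nerves (17477 genes). The simulated spread was a set function of the mean count, the same in all groups and not estimated from these nerves. These shares therefore need not hold for genes as widely spread as the 3 were in uncrushed nerves. No 2 libraries of a group agreed within sampling noise (chi-square per degree of freedom at least 3.86). Confidence intervals come from the edgeR fit and include the spread between nerves, whereas the 3-count floors cover counting error only. The precursors of Mir6240 and Mir1983 were compared with GENCODE M21 transcripts by blastn 2.17.0+ at an E-value limit of 0.001; the sequence of Mir6236 is not reported here.

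The genes described and all gene lists were chosen with earlier results of these data known. The genes named by rule were those called against both controls, the most abundant ones, the highest and lowest fold change and any same-strand host; with 3 genes in all, each is described. Other normalisations, filters, tests, membership rules, a replicate block and each library left out in turn were tried as alternatives. Replicate numbers were not taken as pairs, since no label says that they mark an animal. By the study's methods the contralateral nerve of operated mice was harvested as well. Crushed and contralateral nerves can therefore share animals, and the tests took them as unpaired. Ratio tests were exact permutation tests, two-sided. The mutant libraries were not used beyond counting the genes they list.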

Additional observations from a re-analysis of the deposited data

How the results depend on the processing

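Each comparison was refitted under 14 alternatives besides leaving out libraries. The number of genes called between crushed and contralateral nerves stayed at 2 or 3, and that between contralateral and uncrushed nerves at 0, under all 14. Between crushed and uncrushed nerves the number went from 1 to 2, with Mir6236 added, without a filter beyond 1 count, with the replicate block and with the adjusted p alone; for the call against both controls it went from 1 to 2 with the replicate block and with the adjusted p alone. Without the filter, the gene called against both controls was Mir6236 in place of Mir1983, whose log2 fold change against contralateral nerves was then -0.87. Leaving out 1 library at a time gave 1 to 2 genes for each comparison of crushed nerves, 0 to 1 between the controls and 0 to 2 against both controls. Leaving out 1 library, the log2 difference between contralateral and uncrushed nerves ranged from -1.11 to 0.0156 for Mir1983 and from -0.74 to 0.19 for Mir6240, both turning above 0 without uncrushed replicate 3. Over these fits the log2 fold change of Mir6236 over contralateral nerves stayed between 1.502 and 1.73.

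The replicate block, which gave 2 genes against uncrushed and 2 against both controls, rests on numbers that were not shown to pair nerves: deviations of same-numbered crushed and contralateral nerves correlated between -0.10 and 0.18, those of crushed and uncrushed nerves between -0.15 and 0.07, and 4 of 8 and 1 of 6 libraries correlated best with their own number. With the block, the log2 fold change of Mir6236 over the uncrushed group came to 1.04 (adjusted p 0.0134).

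TMM factors from protein-coding genes, an alternative chosen after the data were seen, moved the median of all genes between crushed and uncrushed nerves from -0.03 to -0.16, and Mir6236 from 0.92 to 0.78. That alternative and leaving out ribosomal and other short structural RNA genes, also chosen later, changed no call of the 3 genes. In the all-gene counts between the controls, DESeq2 called 20 genes and edgeR's exact test 177 where the quasi-likelihood test called 0. The 3 widely spread uncrushed nerves and the low counts of Mir1983 limit the precision.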
